A study of Homo sapiens with 12 samples.

Results

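Messenger RNAs known as targets of the let-7 microRNAs were followed after knockdown of ERI2, an exonuclease related to ERI1 and ERI3. The 10 genes were chosen by name as known let-7 targets of growth and stemness: HMGA2, TRIM71, NR6A1, LIN28B, IGF2BP1, IGF2BP2, IGF2BP3, MYCN, ARID3B and HMGA1. Earlier results of these data were known when they were chosen. All 10 stood among the 55765 gene names of the long RNA table, and 9 held enough counts to be tested, the exception being MYCN. Both groups were HEK293T cells, an established line of human embryonic kidney origin with SV40 large T antigen, one given siRNA against ERI2 and the other a control siRNA, each at 50 nM with a repeat transfection 48 hours after the first and a harvest 72 hours after the repeat. The labels do not say whether the siRNA was a pool. The same protocol also names siRNA against ERI1, and for growth the labels name HEK293, the parent line. Long RNA (RNA-seq) and microRNA (miRNA-seq) were each measured in 3 control and 3 ERI2 siRNA libraries, 12 in all. A single ERI2 siRNA group with no rescue was compared with a single control, so effects of the siRNA other than loss of ERI2 cannot be told apart. The labels do not say that replicates were separate cultures, so p-values measure library-to-library spread only, and that may be technical.

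The let-7 microRNAs are short RNAs that guide an Argonaute protein to messenger RNAs carrying a match to their seed, bases 2 to 8 from the 5′ end, and the bound messages are translated less and decay faster. They are low in early embryos and stem cells and rise as cells differentiate, and their classical targets are genes of growth and of the embryonic state. LIN28B, itself a target, binds let-7 precursors and blocks their maturation, which makes the pair a double-negative loop.

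The 9 names counted here as let-7 guides are shown because all carried the same seed and so can pair with the same sites. The sequences come from RefSeq (table of build GRCh38.p14), where 22 of 23 listed let-7 names were found, and the capitals mark the seed.
hsa-let-7a-5p: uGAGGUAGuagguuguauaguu
hsa-let-7b-5p: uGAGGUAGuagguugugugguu
hsa-let-7c-5p: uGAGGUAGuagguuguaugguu
hsa-let-7d-5p: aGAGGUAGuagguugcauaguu
hsa-let-7e-5p: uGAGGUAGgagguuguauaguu
hsa-let-7f-5p: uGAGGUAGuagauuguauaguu
hsa-let-7g-5p: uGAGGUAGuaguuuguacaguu
hsa-let-7i-5p: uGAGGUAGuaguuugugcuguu
hsa-miR-98-5p: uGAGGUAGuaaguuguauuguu
Outside the seed they differed from let-7a at 1 to 4 bases, counted from 1 at the 5′ end and written with the let-7a base first: A19G in let-7c, U9G in let-7e, G12A in let-7f, and G12U with U18C in let-7g. In let-7i the changes were G12U, A17G, U18C and A19U, in miR-98 they were G11A and A19U, in let-7b A17G and A19G, and in let-7d U1A and U16C. The mature let-7a sequence came from 3 loci (MIRLET7A1, MIRLET7A2 and MIRLET7A3) and let-7f from 2 (MIRLET7F1 and MIRLET7F2), so a count of these names sums over loci. A messenger RNA site that pairs with the whole seed reads CUACCUC. Of 2370 mature names in that source, 11 carried this seed; the other two, miR-4458 and miR-4500, were shorter molecules with at most 5 counts in any library and were not tested.
hsa-miR-4458: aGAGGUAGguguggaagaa
hsa-miR-4500: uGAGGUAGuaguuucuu

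Depth, in units of 1e+06 counts, was 29.1 to 38.3 per RNA-seq library and 0.723 to 1.03 per miRNA-seq library. ERI2 mRNA, which checks the labels, was at 54.4, 58.2 and 54.4 CPM (counts per 1e+06 counts, with library sizes scaled by the TMM method) in control libraries and at 34.6, 35.8 and 32.5 CPM in ERI2 siRNA libraries. Along the first principal component of the RNA-seq libraries (45.2% of the variance) control replicate 1 (-6.29) and ERI2 siRNA replicate 1 (8.45) lay close together, between the other controls (-32.4 and -31.8) and the other ERI2 siRNA libraries (25.7 and 36.4), so the main results are also given for replicates 2 and 3 alone. That choice rests on these same data and favours a wider gap between the groups. Markers of HEK293 cells, neuronal and kidney genes, summed to 181 to 203 CPM in control and 158 to 180 CPM in ERI2 siRNA libraries. Markers of other cell types were lower in sum: 35.0 to 38.7 against 19.8 to 21.9 CPM for 8 keratinocyte and carcinoma markers, 74.8 to 84.6 against 62.1 to 66.0 CPM for 8 fibroblast markers and 3.86 to 5.51 against 3.65 to 3.96 CPM for 6 blood markers. Of these, KRT5, COL1A2, THY1 and CD3E had no count in any library. Of the tested markers 2 of 8 HEK293 genes were lower (NEFL, -0.50, and INA, -0.49, on the log2 scale). Lower too were 4 of 5 keratinocyte and carcinoma genes and 2 of 5 fibroblast genes, but 0 of 4 blood genes. These calls come from the test described in the next paragraph, in which 4.25% of all tested genes were lower. The part of the markers in the results below was not tested. In bulk RNA, fewer cells of a type and less RNA per cell cannot be told apart.

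Among the let-7 target messages, 2 rose, TRIM71 and NR6A1, 1 fell, HMGA2, and 6 did not pass (edgeR's quasi-likelihood test, Benjamini-Hochberg adjusted p under 0.05 over 18843 genes). Over all genes tested 8.54% passed, 4.29% as higher and 4.25% as lower. The share of the members was thus 3 of 9. The members were chosen with earlier results of these data known, so this share cannot be read as an enrichment. None of the 3 passed at an adjusted p under 0.01, or with the replicate number as a block in edgeR's test. The median log2 fold change of the 9 tested members was 0.04, beside 0.003 for all tested genes, and 6 members lay above and 3 below 0. With replicates 2 and 3 alone that median was -0.003, beside -0.002 for all genes. In that fit 13.9% of all genes passed as higher and 14.1% as lower. Replicate 1 was left out for its place between the groups, so smaller adjusted p-values there are no independent support. Fold changes of ERI2 siRNA over control were 1.33 for TRIM71, 1.27 for NR6A1 and 0.801 for HMGA2. CPM is not divided by transcript length, so levels are compared between groups and not between genes.

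TRIM71 (also called LIN41) is an RNA-binding ubiquitin ligase of embryonic stem cells and the homolog of lin-41, a let-7 target in worms. Its level was 22.7, 26.0 and 22.2 CPM in control libraries and 30.9, 33.3 and 30.2 CPM in ERI2 siRNA libraries. Every ERI2 siRNA library was above every control library. The log2 fold change was 0.41 (SE 0.0890, 95% interval 0.22 to 0.60), with an adjusted p of 0.0144 by edgeR. With replicates 2 and 3 alone it was 0.39 (adjusted p = 0.00768 in the same test). The call was lost without control replicate 3 (adjusted p = 0.0867 in edgeR's test) or ERI2 siRNA replicate 2 (0.0809), and over all 16 alternatives the adjusted p ran from 0.00148 to 0.0867.

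NR6A1, the orphan nuclear receptor GCNF, silences pluripotency genes as embryonic cells differentiate. It was at 40.4, 39.9 and 38.3 CPM in control libraries and at 46.4, 51.0 and 53.4 CPM in ERI2 siRNA libraries. Again the groups did not overlap, and the ERI2 siRNA library nearest to the controls was replicate 1. The log2 fold change was 0.35 (SE 0.0784, 95% interval 0.18 to 0.51; edgeR's quasi-likelihood test, adjusted p = 0.0175), and with replicates 2 and 3 alone it was 0.41 (adjusted p = 0.00141). Without control replicate 3, ERI2 siRNA replicate 2 or ERI2 siRNA replicate 3 the adjusted p in edgeR's test was 0.0951, 0.0818 and 0.0999, and over the 16 alternatives it ran from 0.00141 to 0.0999. MIR181A2HG, a non-coding gene that overlaps NR6A1 in RefSeq, held 1.15% as many counts as NR6A1.

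HMGA2, a chromatin protein of embryonic and tumour cells with several let-7 sites in its message, went the other way. It was at 59.1, 74.1 and 61.2 CPM in control libraries and at 55.1, 53.2 and 47.4 CPM in ERI2 siRNA libraries. The groups did not overlap, but control replicate 1 and ERI2 siRNA replicate 1 were only 59.1 and 55.1 CPM, and the control spread came mostly from replicate 2. The log2 fold change was -0.32 (SE 0.0935, 95% interval -0.52 to -0.12; edgeR's quasi-likelihood test, adjusted p = 0.0481), close to the threshold. With replicates 2 and 3 alone it was -0.43 (adjusted p = 0.0023 in the same test). In 11 of 16 alternatives HMGA2 no longer passed: its adjusted p in edgeR's test was 0.192 without control replicate 2, 0.0976 without control replicate 3, 0.12 without ERI2 siRNA replicate 2 and 0.197 without ERI2 siRNA replicate 3, and it ran from 0.0023 to 0.197 over all alternatives.

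HMGA1, the paralog of HMGA2 in the same family of AT-hook chromatin proteins, did not pass. It was at 75.8, 84.5 and 91.5 CPM in control libraries and at 93.3, 91.5 and 83.1 CPM in ERI2 siRNA libraries, and the groups overlapped. Its log2 fold change was 0.09 (95% interval -0.08 to 0.26; edgeR's quasi-likelihood test, adjusted p = 0.513). Processed copies of HMGA1 that the table lists (HMGA1P1 to HMGA1P8) held at most 87 counts each over all 6 libraries, beside 16963 for HMGA1. These counts do not show how reads shared between HMGA1 and its copies were assigned.

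**Figure D1:**
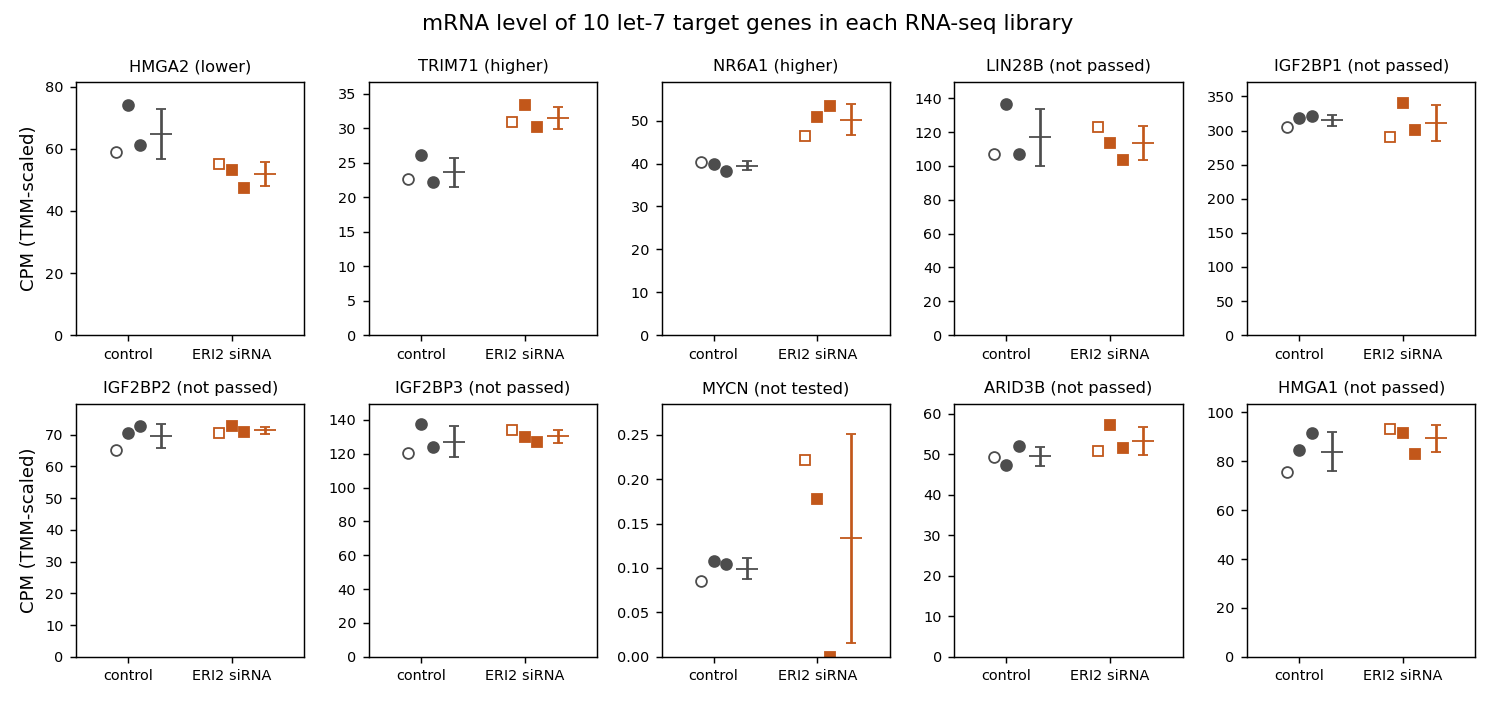
Level of each of the 10 let-7 target messages in CPM (counts per 1e+06 counts, TMM-scaled; vertical axes start at 0 and differ between panels) in 3 control libraries (grey circles) and 3 ERI2 siRNA libraries (orange squares), with replicate 1 drawn open and the bar giving mean ± SD. TRIM71 and NR6A1 lay higher in every ERI2 siRNA library and HMGA2 lower, while the groups overlapped for the other 7 genes.

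LIN28B, the let-7 blocker, did not pass either. Control libraries held 107, 136 and 107 CPM and ERI2 siRNA libraries 123, 114 and 103 CPM. The highest library and the 2 next to the lowest were controls, so the groups were interleaved. The log2 fold change was -0.04 (95% interval -0.25 to 0.17; edgeR's quasi-likelihood test, adjusted p = 0.816), and its sign turned under total library size (0.01), without control replicate 2 (0.08) and without ERI2 siRNA replicate 3 (0.02). Its paralog LIN28A, which acts on the same precursors, was near the limit of detection with 5, 7 and 6 counts in control and 6, 7 and 14 counts in ERI2 siRNA libraries and was not tested.

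The IGF2BP genes encode the 3 IGF2 mRNA-binding proteins, oncofetal proteins that bind and stabilise messages such as IGF2 and MYC. None of them passed. IGF2BP1 was at 306, 319 and 321 CPM in control and 291, 340 and 300.3 CPM in ERI2 siRNA libraries (log2 fold change -0.02, 95% interval -0.19 to 0.15). IGF2BP2 measured 65.2, 70.6 and 72.7 CPM in control and 70.6, 72.6 and 70.7 CPM in ERI2 siRNA libraries (0.04, 95% interval -0.11 to 0.19). For IGF2BP3 control libraries gave 120.2, 137 and 124 CPM and ERI2 siRNA libraries 134, 129.98 and 127 CPM (0.03, 95% interval -0.12 to 0.19). By edgeR the adjusted p was 0.896, 0.771 and 0.799 in this order, and each pair of groups overlapped. The upper ends of all 3 intervals lay below 0.20 on the log2 scale. In RefSeq the gene MALSU1 overlaps the span of IGF2BP3 and held 14.4% as many counts, and the strand setting of the counting was not given in the sources used here, so reads of these genes may not be separable.

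ARID3B, a DNA-binding protein of the ARID family, measured 49.2, 47.2 and 51.9 CPM in control and 50.8, 57.2 and 51.6 CPM in ERI2 siRNA libraries. The groups overlapped, with ERI2 siRNA replicate 2 the highest of the 6 libraries. Its log2 fold change was 0.11 (95% interval -0.06 to 0.27; edgeR's quasi-likelihood test, adjusted p = 0.406). MYCN, the neuronal MYC paralog, was counted 3, 4 and 3 times in control libraries and 7, 6 and 0 times in ERI2 siRNA libraries. At 0.222 CPM or less in every library a change in MYCN was not detectable at this depth.

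In all, 3 of the 9 tested members had groups without overlap, near the 29.7% found over all tested genes. The 6 members that did not pass had 95% intervals that reached from -0.25 at the lowest to 0.27 at the highest on the log2 scale. None of these 6 passed in any of 16 alternatives. Over these alternatives the log2 fold change ran from -0.17 to 0.08 for LIN28B, from -0.09 to 0.04 for IGF2BP1, from -0.01 to 0.10 for IGF2BP2, from -0.03 to 0.09 for IGF2BP3, from -0.01 to 0.15 for HMGA1 and from 0.05 to 0.17 for ARID3B. Only ARID3B among the 6 kept its sign in all 16.

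**Figure D2:**
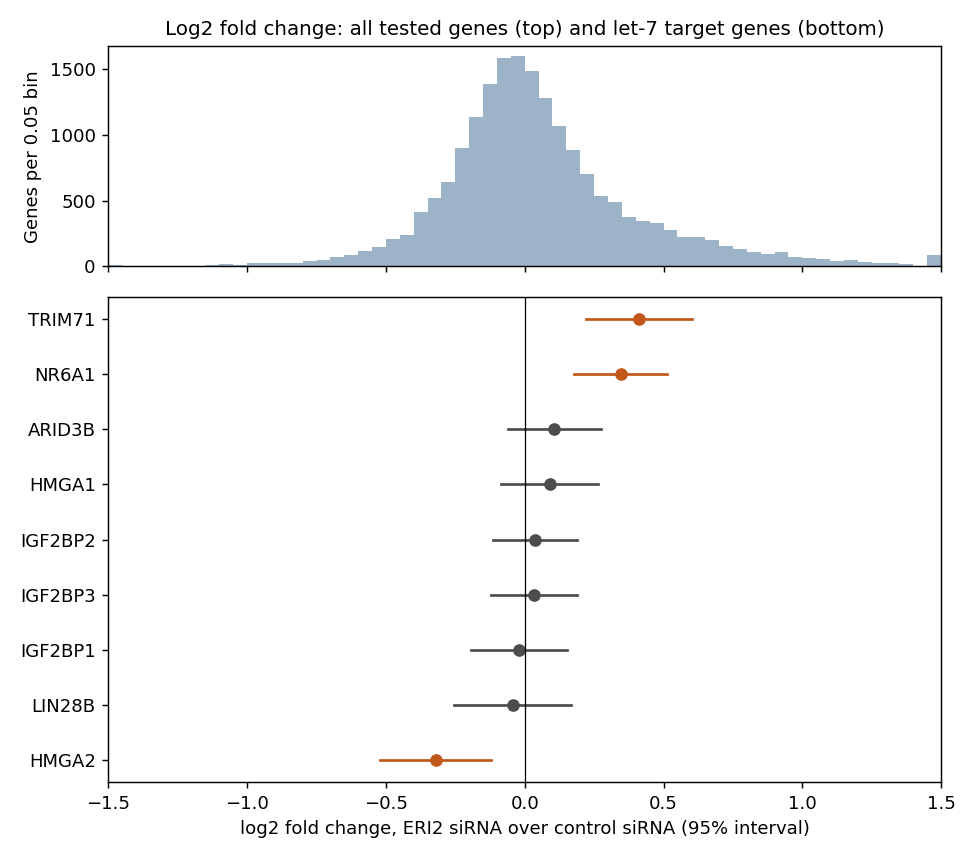
Top, log2 fold changes of all 18843 tested genes in bins of 0.05, with values beyond 1.5 in either direction placed in the end bins; bottom, the 9 tested let-7 target genes with 95% intervals, those that passed edgeR's test in orange. TRIM71 (0.41) and NR6A1 (0.35) lie to the right of 0 and HMGA2 (-0.32) to the left, inside the bulk of all genes.

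The let-7 guides themselves were lower in every ERI2 siRNA library of the miRNA table. Together they made up 1.17%, 1.12% and 1.17% of miRNA counts in control libraries (9472, 8604 and 8497 counts) and 0.568%, 0.437% and 0.520% in ERI2 siRNA libraries (5845, 3245 and 4904 counts). As shares of all counts the family therefore fell 2.28-fold, a log2 ratio of -1.19, and the groups did not overlap (exact two-sided permutation test, p = 0.1, the smallest that 3 against 3 libraries can give). With replicates 2 and 3 alone the log2 ratio was -1.26. The most abundant name, miR-10a-5p, moved in the same direction, from 24.3% to 25.5% of counts in control libraries to 8.49% to 11.9% in ERI2 siRNA libraries.

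All 9 guides passed the test across the 1316 tested miRNA names and were lower. Over all names 34.1% passed and 23.0% were lower, and 38.1% of the 441 names with a mean of at least 100 CPM were. For each of the 9 the groups did not overlap in TMM-scaled CPM, as for 26.0% of all names and 41.5% of the abundant ones with ERI2 siRNA below control. The abundance limit was set after the values were seen. Under it lay let-7b (control and ERI2 siRNA means of 63.9 and 10.4 CPM) and let-7d (68.3 and 15.4 CPM). The most abundant guide, let-7a, was counted 4232, 3865 and 3792 times in control and 2645, 1412 and 2147 times in ERI2 siRNA libraries (0.524%, 0.505% and 0.524% against 0.257%, 0.190% and 0.228% of all counts). The guides with the fewest counts, let-7b and let-7d, held 26 to 37 counts per control library and 11 to 28 per ERI2 siRNA library. Log2 fold changes with TMM scaling were -2.41 for let-7a, -2.59 for let-7b, -2.72 for let-7c, -2.12 for let-7d, -2.72 for let-7e, -2.29 for let-7f, -2.31 for let-7g, -2.32 for let-7i and -2.37 for miR-98. The adjusted p by edgeR ran from 9.49e-09 to 2.85e-06. The median of the 9 was -2.37, beside 0.05 for all tested names and -0.03 for names of at least 100 CPM. These medians hide a second peak of lower names. Bins of log2 fold change centred at -2.7, -2.5, -2.3 and -2.1 held 17, 47, 52 and 24 tested names, guides included. A fall of this size was therefore not particular to let-7.

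The size of the fall depended on the scaling, because TMM gave control libraries factors of 0.639 to 0.677 and ERI2 siRNA libraries 1.45 to 1.63. Scaled by total counts, the guides had log2 fold changes from -1.51 to -0.91 with a median of -1.15, and the median of all names moved from 0.05 to 1.27. A change of scaling shifts all names by about the same amount. By total counts 85.2% of the calls were rises, against 32.5% with TMM, and all 9 guides were still lower. The absolute amount of let-7 per cell was not measured, so these sizes cannot be told apart here.

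**Figure D3:**
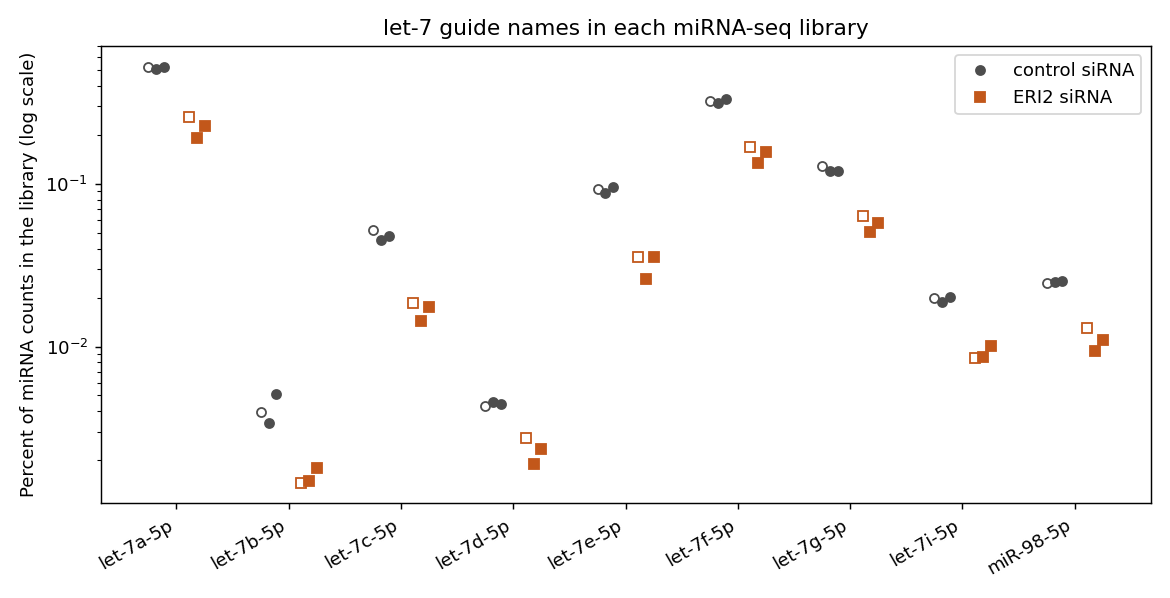
Share of each let-7 guide name in the counts of its miRNA-seq library (percent, log axis) for 3 control (grey circles) and 3 ERI2 siRNA libraries (orange squares), with replicate 1 drawn open. For each of the 9 names all ERI2 siRNA libraries lie below all control libraries.

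**Figure D4:**
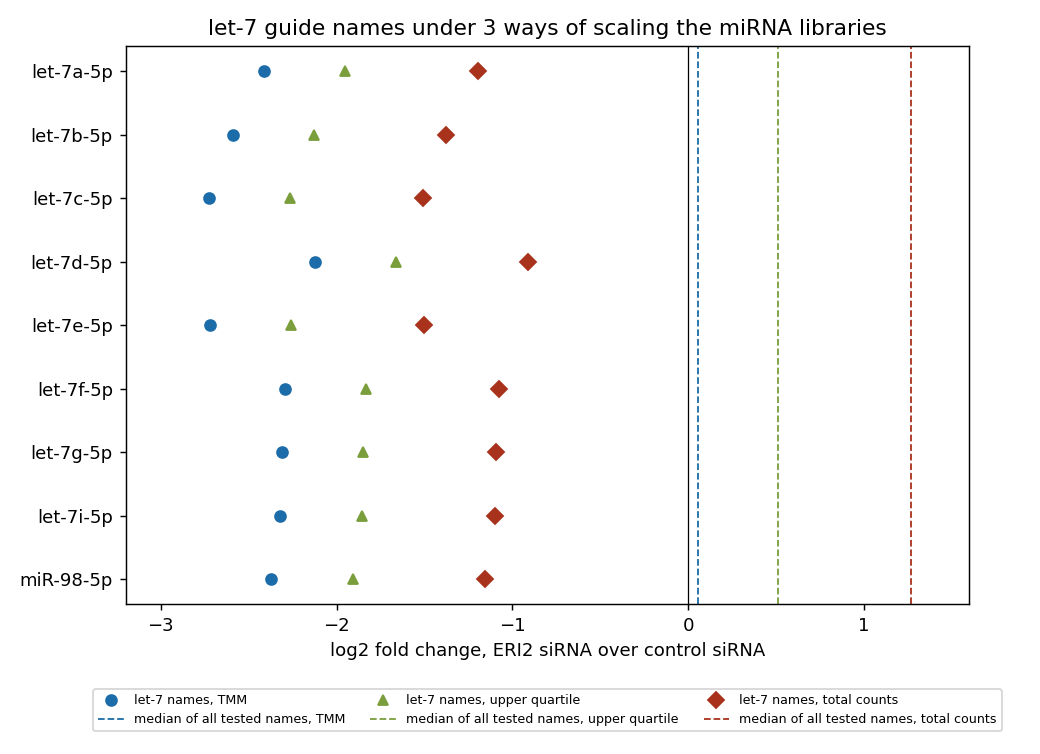
Log2 fold change of each let-7 guide name with library sizes scaled by TMM (blue circles), by the upper quartile (green triangles) or by total counts (red diamonds); dashed lines mark the median of all tested names under the same scaling. The guides move from a median of -2.37 to one of -1.15 between TMM and total counts and stay below 0, and the median of all names moves from 0.05 to 1.27.

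The make-up of the family needs no scaling factor and changed less than its share of all counts, which fell 2.28-fold. The largest falls within the family were 1.26-fold, for let-7c and let-7e. let-7a was 44.7%, 44.9% and 44.6% of guide counts in control and 45.3%, 43.5% and 43.8% in ERI2 siRNA libraries. let-7e, which carries U9G, went from 7.98%, 7.85% and 8.09% to 6.21%, 5.92% and 6.85%, and let-7c, which carries A19G, from 4.42%, 3.998% and 4.08% to 3.27%, 3.30% and 3.36%. let-7f, with G12A, went from 27.5%, 27.96% and 28.3% to 29.5%, 30.9% and 30.1%. For let-7c, let-7d, let-7e, let-7f and let-7g the groups did not overlap (exact two-sided permutation test, p = 0.1 each, 0.18 adjusted over the 9 names), so no single shift in make-up could pass a threshold in this design. In TMM-scaled CPM, another measure, the groups did not overlap for 47.5% of all tested names. Shares within the family sum to a fixed total, so its rises and falls depend on each other.

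The other arm of the let-7 hairpin, whose names end in 3p, is called the passenger and is mostly discarded. Summed over 11 names, passengers went from 119, 133 and 134 counts (0.0147%, 0.0174% and 0.0185% of the library) in control to 287, 240 and 343 counts (0.0279%, 0.0324% and 0.0364%) in ERI2 siRNA libraries. Of these, let-7d-3p alone held 55, 61 and 62 counts in control and 184, 145 and 220 counts in ERI2 siRNA libraries, more than its guide in every library. Of the 4 tested, let-7f-2-3p fell (log2 fold change -2.02, edgeR adjusted p = 4.54e-06 with TMM), and let-7d-3p (0.16, adjusted p = 0.492), let-7e-3p (-0.41, adjusted p = 0.264) and let-7g-3p (0.22, adjusted p = 0.686) did not pass. These calls changed with the scaling: by total counts let-7d-3p (1.39, edgeR adjusted p = 6.66e-10), let-7e-3p (0.80, adjusted p = 0.0115) and let-7g-3p (1.43, adjusted p = 0.000261) were higher, as was let-7d-3p by the upper quartile (0.63, adjusted p = 0.00403). By total counts 1031 of all 1316 tested names were called higher, and their median log2 fold change was 1.27. Under the upper quartile 580 of 1316 were called higher. The summed passenger share had a log2 ratio of 0.93, so these rises were not particular to let-7 passengers. let-7f-2-3p was lower under each scaling. The passenger arms of 3 hairpins are shown because their counts went apart from those of the guide, and the capitals again mark bases 2 to 8.
hsa-let-7d-3p: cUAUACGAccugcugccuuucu
hsa-let-7e-3p: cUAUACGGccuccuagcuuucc
hsa-let-7g-3p: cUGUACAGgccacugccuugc
The ratio of guide to passenger counts within a library is free of scaling. For let-7d it was 0.636, 0.574 and 0.516 in control and 0.152, 0.0966 and 0.10 in ERI2 siRNA libraries, a log2 change of -2.33. The let-7e ratio went from 58.2, 51.9 and 49.1 to 14.5, 7.11 and 11.2 (-2.33), and the let-7g ratio from 172.5, 83.5 and 216.5 to 31.3, 19.6 and 20.2 (-2.66, on as few as 4 passenger counts in a library). For let-7f over let-7f-2-3p it was 84.0, 70.8 and 75.3 against 90.8, 45.5 and 61.4 (-0.27), and the groups overlapped. The let-7f count sums over MIRLET7F1 and MIRLET7F2 and let-7f-2-3p is named for MIRLET7F2 alone. This ratio is therefore not of a single hairpin, unlike the others. The first 3 ratios did not overlap between groups (exact two-sided permutation test, p = 0.1 each, 0.133 adjusted over 4 ratios), the smallest p this design allows. These ratios were chosen after the values were seen. With TMM the guides had a median log2 fold change of -2.37, beside 0.05 for all tested names. A guide divided by a name without change therefore falls by about as much as these ratios. Whether the fall in the ratio is particular to passenger strands was not tested.

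**Figure D5:**
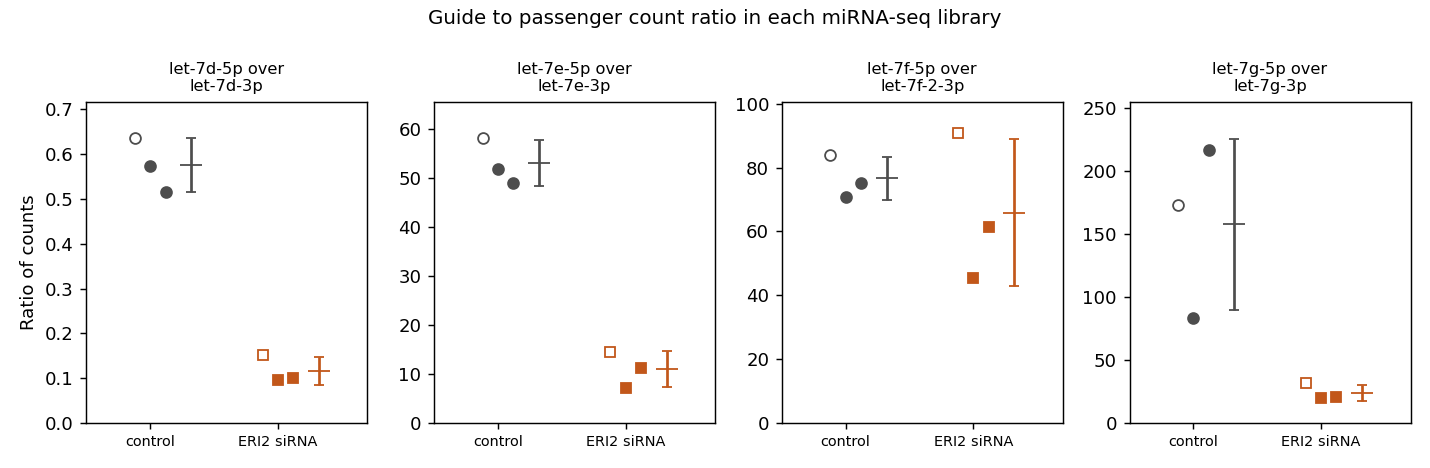
Counts of a let-7 guide divided by counts of the passenger strand in the same miRNA-seq library (vertical axes start at 0 and differ between panels) for 3 control (grey circles) and 3 ERI2 siRNA libraries (orange squares), replicate 1 open, with mean ± SD. The ratio is lower in every ERI2 siRNA library for let-7d, let-7e and let-7g, and the groups overlap for let-7f over let-7f-2-3p. The let-7f count sums over more than a single hairpin.

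Set beside each other, the guides were lower in every ERI2 siRNA library, while the 9 tested target messages held 2 rises and 1 fall. The RNA-seq and miRNA-seq libraries share replicate numbers, but the labels do not say that they came from the same cells, so no relation across libraries was computed.

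A wider list of 42 genes described as let-7 targets gave 0 rises and 2 falls among 39 tested (4 rises and 6 falls at an unadjusted p under 0.05; 0 rises and 4 falls by DESeq2, 0 and 2 by limma-voom). Over all genes 4.25% were lower and 4.29% higher, so the falls were near the share found over all genes. Its median log2 fold change was -0.03, with 19 genes above and 20 below 0. FAS, the death receptor, fell from 12.8, 12.9 and 12.5 CPM in control to 9.85, 7.42 and 7.56 CPM in ERI2 siRNA libraries (log2 fold change -0.62, edgeR adjusted p = 0.0112). TGFBR1, a TGF-beta receptor kinase, fell from 93.0, 94.3 and 102 CPM to 83.5, 76.2 and 66.7 CPM (-0.35, adjusted p = 0.0216 in the same test). For both genes ERI2 siRNA replicate 1 was the library nearest to the controls. Next by p were the insulin receptor gene INSR (-0.25, adjusted p = 0.0559) and PRTG, a protogenin of the early embryo (0.22, adjusted p = 0.0710), which did not pass. FAS no longer passed without ERI2 siRNA replicate 2 or 3 (adjusted p = 0.0600 and 0.0535 in edgeR's test), nor TGFBR1 without control replicate 3, ERI2 siRNA replicate 2 or ERI2 siRNA replicate 3 (0.106, 0.0774 and 0.113).

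More genes of the wider list passed when replicate 1 was left out of both groups. With replicates 2 and 3 alone, where 13.9% of all genes were higher and 14.1% lower, the growth signal transducer gene NRAS (-0.46), the cell cycle kinase gene CDK6 (-0.30), the cyclin gene CCND2 (-0.26) and NAP1L1 (-0.45) were among those lower beside FAS and TGFBR1, and IGDCC4 (0.31) was higher. In that fit 7 falls and 1 rise stood among 39 genes, and TRIM71, NR6A1 and HMGA2 were the only members of the first list that passed. These genes are named after their values were seen.

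Among genes that make let-7, block it or act with it, 2 of 22 tested rose and none fell (5 rises and 3 falls at an unadjusted p under 0.05; 3 rises and 0 falls by DESeq2, 2 and 0 by limma-voom), beside 4.29% of all genes higher and 4.25% lower. TNRC6A, a scaffold that links Argonaute to message decay, rose from 128, 129 and 125 CPM in control to 162, 162 and 159 CPM in ERI2 siRNA libraries (log2 fold change 0.34, edgeR adjusted p = 0.0094). TARBP2, a partner of Dicer, rose from 33.0, 33.6 and 36.3 CPM to 40.3, 40.6 and 42.8 CPM (0.26, edgeR adjusted p = 0.0488). Neither gene's groups overlapped. The TARBP2 call was lost in 5 of 6 fits without 1 library: edgeR's adjusted p was 0.0907, 0.141 and 0.0993 without control replicate 1, 2 or 3, and 0.141 and 0.199 without ERI2 siRNA replicate 2 or 3. It was also lost without a count filter (0.0680). TNRC6A no longer passed without control replicate 3 (0.0641) or ERI2 siRNA replicate 2 (0.0536). DGCR8, which works with Drosha in the nucleus, narrowly missed the threshold (0.29, adjusted p = 0.0522). It was called higher by DESeq2 (adjusted p = 0.0229) and by edgeR under upper-quartile scaling (0.0445), the filter of 1 CPM (0.0481), no filter (0.0159), without control replicate 1 (0.0137), without ERI2 siRNA replicate 1 (0.0123) and with replicates 2 and 3 alone (log2 fold change 0.44, adjusted p = 0.000163). The DGCR8 groups overlapped, and it did not pass in the other alternatives. Among these were limma-voom (adjusted p = 0.0558) and edgeR's test with the replicate block (0.176). Others were edgeR's test without control replicate 2 or 3 (0.176 and 0.207) and without ERI2 siRNA replicate 2 or 3 (0.183 and 0.193). TRIM25, a ubiquitin ligase that binds let-7 precursors, did not pass (-0.17, adjusted p = 0.134). The uridylating enzyme genes ZCCHC11 (0.16) and ZCCHC6 (-0.06), which add bases to let-7 precursors held by LIN28, did not pass either, nor did the gene of DIS3L2 (0.09), the nuclease that then degrades them. The groups did not overlap for TRIM25 and ZCCHC11, as for 29.7% of all tested genes. With replicates 2 and 3 alone TRIM25 was lower (-0.24, edgeR adjusted p = 0.0278) and ZCCHC11 higher (0.19, adjusted p = 0.0428). In that fit 14.1% of all genes were lower and 13.9% higher.

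The let-7 loci gave little signal in long RNA. Of 19 listed names 16 stood in the table and 7 were tested; none passed (0 at an unadjusted p under 0.05, 0 by DESeq2 and limma-voom). HUWE1, which hosts the hairpins of miR-98 and one let-7f copy, was at 1054, 1055 and 1057 CPM in control and 968, 1041 and 1006 CPM in ERI2 siRNA libraries (log2 fold change -0.07, 95% interval -0.26 to 0.12). WDR82, which hosts let-7g (-0.07, 95% interval -0.24 to 0.11), and LINC00478, which hosts let-7c (-0.10, 95% interval -0.35 to 0.16), did not pass, nor did the hairpin name MIRLET7D (0.31, 95% interval -0.30 to 0.92), with at most 33 counts in a library. The hairpin names MIRLET7A1 (-0.03, 95% interval -1.14 to 1.081), MIRLET7F1 (-0.25, 95% interval -1.13 to 0.63) and MIR98 (0.04, 95% interval -0.77 to 0.84) held 5 to 22 counts in a library, and their intervals were wide.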

How the data were processed

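The authors deposited raw read counts per gene name and per mature miRNA name, in one table each; per the values these counts are whole numbers with different totals. The submitters' processing notes list hg19 as build and, as tools, HTSeq 0.6.1p1, TopHat2 2.0.10 and CASAVA 1.8.2, without saying what each did. Annotation, strand setting, small RNA library kit and miRNA aligner: not given in the sources used here. RNA came from RNeasy columns per the labels' protocols, whose recovery of small RNA was not tested. The reference tables are of another build, so no coordinates are printed. All columns matched one sample.

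In R 4.3.3, edgeR 4.0.16 was run on each table: filterByExpr, TMM factors, then the robust quasi-likelihood test with Benjamini-Hochberg adjustment. Intervals are the log2 fold change ± the t quantile of edgeR's total degrees of freedom times the SE, which is the fold change over the square root of F. In the library with the lowest share, 99.89% (RNA-seq) and 99.29% (miRNA-seq) of counts fell in tested names. The code was tested on simulated data. Between replicates, chi-square per degree of freedom was at least 5.03 (RNA-seq) and 1.90 (miRNA-seq), more than counting noise gives.

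The members and lists were chosen with earlier results of these data known. Named were all members, all guides, tested passenger names, ERI2, and per further list the 4 smallest p-values; others were named after their values were seen. Alternatives were DESeq2 1.42.0, limma-voom (limma 3.58.1), 3 other scalings, no filter, a filter of 1 CPM (10 for miRNA) in 3 libraries, a replicate block, each library left out, replicates 2 and 3 alone, an adjusted p under 0.01 and leaving out miR-10a-5p.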

Additional observations from a re-analysis of the deposited data

How the results depend on the processing

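All 9 let-7 guides were lower in each of 17 alternatives, with log2 fold changes from -2.89 to -0.91, and the log2 ratio of the summed share stayed between -1.27 and -1.09 without any 1 library and was -1.44 without miR-10a-5p in the total. Of the passenger names, let-7e-3p reversed to a rise under total library size (0.80), and let-7d-3p (1.39) and let-7g-3p (1.43) were called higher there. In that fit 1031 of 1316 tested names were higher. The calls among the target messages were less stable. HMGA2 was no longer called lower (0 falls) under the filter of 1 CPM, upper-quartile, total-count and RLE scaling, and limma-voom. At an adjusted p under 0.01 the members held 0 rises and 0 falls, the wider target list 0 falls, and the biogenesis list 1 rise. Without single libraries the members held 0 to 2 rises and 0 to 1 falls, the wider list 0 to 6 falls, and the biogenesis list 0 to 3 rises. The wider list held 4 falls under DESeq2, 6 without a count filter, 2 rises under total library size and 1 under the upper quartile. With replicates 2 and 3 alone it held 1 rise and 7 falls, the biogenesis list 5 rises and 3 falls, and the loci 1 fall (WDR82); the cause was not tested. All genes followed the same course: 1609 calls became 724 and 485 without control replicate 2 or 3, 440 and 371 without ERI2 siRNA replicate 2 or 3, 2751 without ERI2 siRNA replicate 1, 5292 with replicates 2 and 3 alone, 2429 without a count filter and 284 at an adjusted p under 0.01, and rises were 50.3% of calls with TMM and 67.8% under total library size. In miRNA-seq 449 calls became 1210 under total library size and 820 under the upper quartile.

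Deviations of same-numbered RNA-seq libraries from their group means had correlations of -0.30, -0.08 and -0.10. With 3 libraries per arm these cannot decide whether the numbers pair libraries, and the labels do not say. With the replicate block the members held 0 rises and 0 falls, the wider list 0 falls and the biogenesis list 0 rises, and calls over all genes went from 1609 to 203. Arms of 3 libraries limit the exact tests to p = 0.1.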
